A study of Homo sapiens with 4 samples.

Results

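Peaks assigned to several gene identifiers are regions of the PRMT5 RIP peak list for which the annotation offered more than 1 gene. They were taken as every region of the deposited peak list whose gene field held at least 2 identifiers, without use of any measured value. This rule gave 1638 of 18993 peaks, or 8.62%. The study asked whether PRMT5, an arginine methyltransferase that works in a complex with WDR77, binds RNA in T cells. Jurkat cells, a human leukaemic T cell line, were stimulated with PHA, a plant lectin that activates T cells, for 48 hours and crosslinked with 264 nm UV light at 400 mJ. This wavelength is that of the sample labels, and the methods of the study give a different one for RIP. RNA was then sequenced from 2 libraries of PRMT5 immunoprecipitate (PRMT5 RIP) and from 2 libraries of input, the RNA of the lysate before precipitation. Both groups were the same wild-type line with the same stimulation and crosslinking, and the groups held no sample without PHA, without UV or with a control antibody.

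Each peak carried 1 pooled value per group, as RPM (reads scaled to the size of the library), rounded to 0.01. The 2 libraries of a group therefore gave no spread, no test between PRMT5 RIP and input was possible, and every value below is a description of these pooled libraries. The number of reads behind a value is unknown. The main measure was the log2 RPM ratio, the log2 of PRMT5 RIP over input after 0.01 RPM was added to each. A ratio of 1 is a 2-fold higher value in PRMT5 RIP.

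A peak can lie in several genes for different reasons. A readthrough gene is an annotated transcript that runs from an upstream gene through its downstream neighbour, so that it shares exons with both. Small nucleolar RNAs (snoRNAs), which guide chemical modification of ribosomal RNA, and small Cajal body RNAs (scaRNAs), which do the same for spliceosomal RNA, are mostly cut from introns of host genes, many of which encode ribosomal proteins. MicroRNAs (miRNAs), which direct Argonaute proteins to partly complementary mRNAs through the seed at their 5′ end, often lie in introns or exons of a host as well. Other genes lie inside or across the end of a neighbour, and mitochondrial genes are transcribed together and abut or overlap. In each case the reads of the peak cannot be divided among the genes listed.

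The miRNAs listed beside a host gene are shown first by sequence, because the identifier names a short RNA whereas the peak is usually much longer. The mature sequences below are RefSeq entries of GRCh38.p14 with the seed, bases 2 to 8, in capitals. They belong to the miRNAs in the peaks with the highest PRMT5 RIP RPM and with the highest and lowest ratios, to miR-342 and miR-126, which lie in hosts of lymphocytes and endothelium, and to the sequences that shared a seed.
hsa-miR-6797-5p: aGGAGGGAaggggcugagaacagga
hsa-miR-1249-5p: aGGAGGGAggagaugggccaaguu
hsa-miR-6737-5p: uUGGGGUGgucggcccuggag
hsa-miR-6812-5p: aUGGGGUGagauggggaggagcagc
hsa-miR-6819-5p: uUGGGGUGgagggccaaggagc
hsa-miR-6869-5p: gUGAGUAGuggcgcgcggcggc
hsa-miR-6834-5p: gUGAGGGAcugggauuugugg
hsa-miR-1244: aAGUAGUUgguuuguaugagaugguu
hsa-miR-342-3p: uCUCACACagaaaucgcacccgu
hsa-miR-126-3p: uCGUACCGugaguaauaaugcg
Among 119 mature sequences of 70 miRNA genes, taken from those with a hairpin entry, there were 116 different seeds. Only GGAGGGA, carried by miR-6797-5p and miR-1249-5p, and UGGGGUG, carried by miR-6737-5p, miR-6812-5p and miR-6819-5p, occurred more than once.

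Most of these peaks listed a pair of identifiers. There were 1344 peaks with 2 identifiers (82.1%), 223 with 3, 42 with 4, 21 with 5 and 8 with 6 or more, up to 14. The peaks held 2372 different identifiers of the 9636 in the whole list. Of these, 716 also stood alone in another peak and 1656 occurred only together with others. In 1636 of 1638 peaks the identifiers followed the order of their accessions, so that the first place in a set followed from the accession. Among the identifiers that were never alone, 1146 were also never listed first, and an assignment of each peak to its first identifier would leave these out. No identifier in the list occurred in peaks of both strands. The 1638 peaks fell into 1195 different sets of identifiers, 947 of them with 1 peak. ABHD14A-ACY1 with ACY1, an aminoacylase gene, and TMEM256-PLSCR3 with PLSCR3, a phospholipid scramblase gene, had 8 peaks each. Peaks of 1 set are not independent of each other.

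Peaks with several identifiers were wider and had higher RPM than peaks with 1 identifier, where RPM was not divided by width. Their median width was 1408.5 nt, against 263 nt. Median PRMT5 RIP RPM was 4.99 against 1.82, and median input RPM was 2.52 against 0.76. Their median log2 RPM ratio was lower, 0.86 (quartiles 0.44 and 1.40) against 1.12 (quartiles 0.65 and 1.68). A ratio of at least 1 was reached by 706 peaks with several identifiers, or 43.1%, where all peaks of the list reached it in 55.7%. PRMT5 RIP lay below input in 114 of them, or 6.96%, where this held for 3.84% of all peaks.

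The median ratio was lower with 3 or more identifiers than with 2. The median log2 RPM ratio was 0.90 with 2 identifiers, 0.68 with 3, 0.67 with 4 and 0.52 with 5 or more. Median input RPM over the same classes was 1.90, 9.93, 18.9 and 13.8, and median width was 732, 7874, 29828 and 25605 nt. Both were higher with 3 or more identifiers than with 2, but lower with 5 or more than with 4. The share of peaks at or above 2-fold was 45.2% with 2 identifiers and 17.2% with 5 or more.

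**Figure D1:**
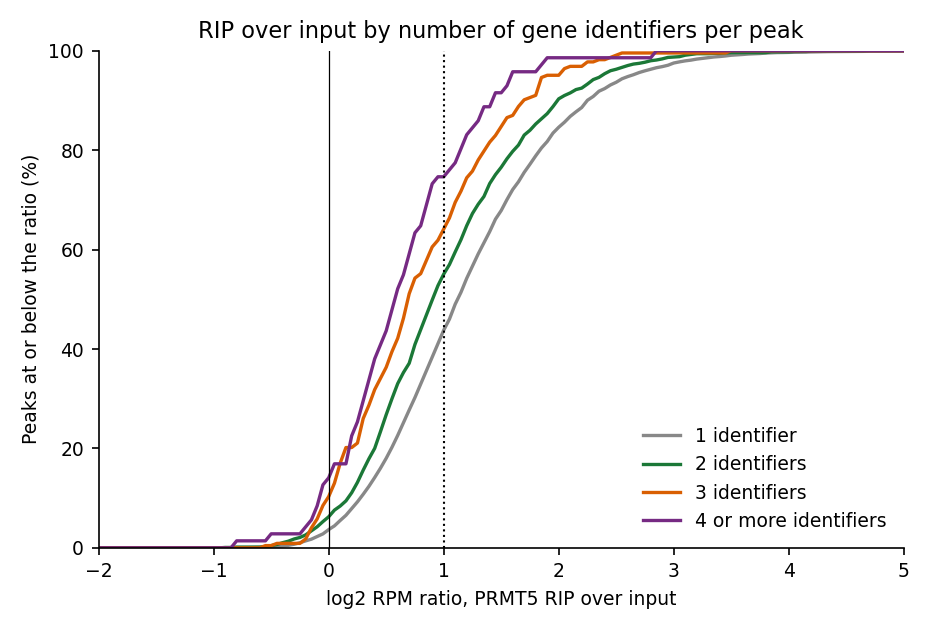
Cumulative share of peaks (vertical axis, %) at or below each log2 RPM ratio of PRMT5 RIP over input (horizontal axis), for peaks with 1, 2, 3 and 4 or more gene identifiers; the dotted line marks a ratio of 1. The medians lie further to the left with more identifiers, although the curves cross in places, with values of 1.12 for 1 identifier, 0.90 for 2 and 0.68 for 3.

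In the list as a whole the median ratio was lower the higher the input class. Within 6 classes of input RPM, peaks with several identifiers had the lower median in each, by 0.05 to 0.14 on the log2 scale. In the class of over 1 to 5 RPM, for example, the medians were 0.81 for 454 peaks with several identifiers and 0.95 for 4453 peaks with 1. In the class of over 20 RPM they were 0.57 for 300 peaks and 0.64 for 1350 peaks, and the share at or above 2-fold was 29.3% and 29.0%. Within 6 classes of width the median was lower by 0.11 to 0.34, the least at over 1000 to 5000 nt and the most at over 20000 nt. In that widest class 34.7% of all peaks listed several identifiers, against 5.67% of peaks of at most 50 nt.

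The 716 identifiers found both alone and with others allowed a comparison within a gene. The median of their differences, with others minus alone, was -0.08 on the log2 scale, and 414 of the 716 (57.8%) were lower with others. Among the 513 identifiers with a median input of at least 0.5 RPM on both sides it was -0.03, with 54.4% lower. Among 97 identifiers whose peaks of both sorts had median widths within 2 times of each other it was -0.18, with 59.8% lower. The added 0.01 RPM mattered as well: with 1 RPM added in its place the medians of peaks with several and with 1 identifier differed by 0.04 in the opposite direction. What part input level, width and shared annotation each had in the lower ratio was not tested.

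A few abundant noncoding and mitochondrial RNAs made up much of the total. Peaks with several identifiers were 8.62% of peaks but held 26.7% of the PRMT5 RIP RPM and 37.7% of the input RPM of the list. The 4 peaks with the highest PRMT5 RIP RPM held 45.0% of the PRMT5 RIP RPM and 62.3% of the input RPM of these 1638 peaks, and all 4 lay below input. The log2 ratio of summed RPM was 0.13 over the 1638 peaks and 0.68 without those 4, where peaks with 1 identifier had 0.86. The 4 peaks are described by the RefSeq genes they touch, since not all of their identifiers could be named, and were chosen by their values.

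The peak over RPPH1, the RNA component of RNase P, which trims tRNA precursors, stood at 29831 RPM after PRMT5 RIP against 39699 RPM in input (ratio -0.41). A peak of 125 nt over RN7SL2, the RNA scaffold of the signal recognition particle, had 25757 and 33912 RPM (-0.40). The peak from ATP8 through ATP6 to COX3, mitochondrial genes of ATP synthase and cytochrome c oxidase, had 23428 and 24114 RPM (-0.04). A peak of 100 nt over RN7SK, which holds the elongation factor P-TEFb inactive, had 11773 and 17187 RPM (-0.55). RN7SL2 and RN7SK have many near-identical copies in the genome, so that their values are uncertain.

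Of the 1638 peaks, 298 had at least 2 identifiers that could be paired with a RefSeq gene, and 248 had all of theirs paired. These named peaks fell into 6 kinds. A small RNA with its host was listed in 121, a readthrough gene in 120, neighbouring genes that do not overlap in 28, a gene nested in another in 15, overlapping genes in 7, and genes whose symbols begin with the same letters in 7. The other 1340 peaks stayed without a kind, 700 of them with 1 identifier named and 640 with none, and their median ratio of 0.86 was that of all 1638. The counts by kind therefore describe what could be named and not the whole set. The genes touched, which do not depend on the naming of identifiers, gave a wider view. At least 2 RefSeq genes were touched by 52.1% of peaks with several identifiers and by 7.15% of peaks with 1. A readthrough gene was touched by 16.4% against 0.887%, a miRNA gene by 8.85% against 0.104%, and a snoRNA or scaRNA gene by 5.43% against 0.357%. In 46.9% of peaks with several identifiers only 1 RefSeq gene was touched, so that the further identifiers had no RefSeq counterpart on that stretch.

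**Figure D2:**
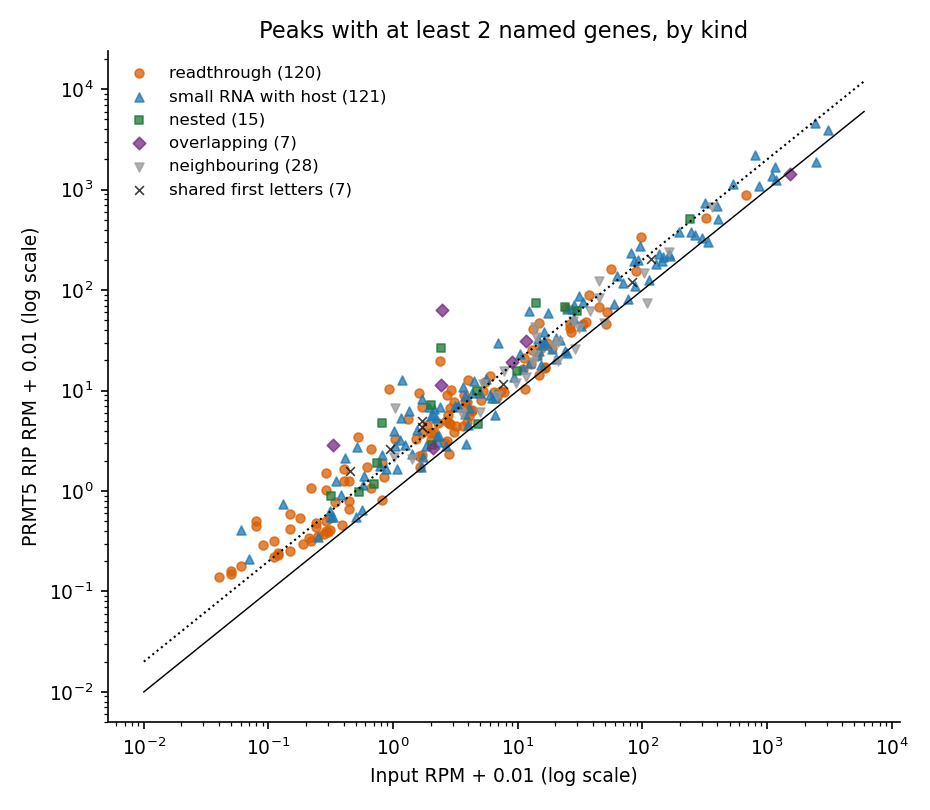
PRMT5 RIP RPM (vertical axis) against input RPM (horizontal axis), each plus 0.01 and on a log scale, for the 298 peaks with at least 2 named genes, by kind of combination; the solid line marks equal values and the dotted line a 2-fold higher value in PRMT5 RIP. Peaks of most kinds spread around the dotted line at low input and lie between both lines at high input.

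Peaks listing a small RNA and its host had a median ratio of 0.86, with 53 of 121 (43.8%) at or above 2-fold, where 55.7% of all peaks were. Among these named peaks the ratio differed by the class of small RNA. The 84 peaks that touched a miRNA gene and no snoRNA had a median ratio of 1.07 with 51.2% at or above 2-fold, and the 36 peaks with a snoRNA or scaRNA had a median ratio of 0.55 with 27.8%. Median input RPM was 3.89 for the first and 79.1 for the second, so that the input level differed along with the ratio. The remaining peak listed WDR74 with RNU2-2, a gene of the U2 spliceosomal RNA, at 332 and 299 RPM (ratio 0.15). By the genes touched, named or not, the classes lay closer together. Peaks with several identifiers that touched a miRNA gene had a median ratio of 0.93 (145 peaks, 48.3% at or above 2-fold). Those that touched a snoRNA or scaRNA gene had 0.81 (89 peaks, 37.1%), and a peak could count in both.

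The snoRNA peaks of highest RPM lay on genes of ribosomal proteins. The peak of RPL13 with SNORD68 (chr16:89560756-89562977, hg38, plus strand) stood at 4615 RPM after PRMT5 RIP against 2437 RPM in input (0.92). RPL13A was listed with SNORD32A, SNORD33, SNORD34 and SNORD35A, 4 box C/D snoRNAs that guide ribose methylation, over 2444 nt at 3937 and 3063 RPM (0.36). Within 1 host the values also varied: RPS3 had a ratio of 1.22 (742 and 319 RPM) in the peak with SNORD15A and 0.32 (1076 and 861 RPM) in the peak with SNORD15B. Likewise RPL27A had 0.81 (688 and 393 RPM) in the peak with SNORA3A and 1.78 (59.8 and 17.4 RPM) in the peak with SNORA3B. The RPS3 and RPL27A pairs were chosen after their values were seen.

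Of a list of 68 snoRNA host genes, 44 had a named peak and 29 had a peak with several identifiers. These 29 hosts had 39 such peaks with a median ratio of 0.71, and 13 of them reached 2-fold, a share below the 55.7% of all peaks. The 101 peaks in which a host of the list stood alone had a median of 0.72, where all peaks had 1.10. The ratio of the host genes was thus below that of all peaks in both sorts of peak, without regard to input level. In the list, peaks of over 20 RPM in input had medians of 0.57 with several identifiers and 0.64 with 1. What part input level had in the ratio of the hosts was not tested. NOP56, which encodes a core protein of box C/D snoRNPs, stood at 1.52 in the peak with SNORD86 and 2 unnamed identifiers (234 and 81.4 RPM), whereas NCL, which encodes nucleolin, stood at 0.14 in the peak with SNORD82 (125 and 113 RPM).

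Of the 84 host peaks with a named miRNA, 78 held a miRNA whose hairpin was in the RefSeq sequences used here, over 73 miRNA genes, and 41 of these 78 reached 2-fold. The whole hairpin precursor lay within the peak in 61 of 78. The peaks were mostly far longer than a hairpin, and 11 of 78 were of at most 200 nt. The highest in PRMT5 RIP was RPS19 with MIR6797 (chr19:41860255-41871424, plus strand), at 2190 RPM against 793 RPM in input, a ratio of 1.47. This peak spans 11170 nt of a ribosomal protein gene, of which the hairpin covers 72 nt. The reads of the mature miRNA and of the host transcript cannot be told apart in such a value.

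The highest ratio of a miRNA peak whose input reached 1 RPM was that of FKBP1A, FKBP1A-SDCBP2 and MIR6869 (chr20:1391702-1393093, minus strand), with 12.8 and 1.16 RPM (3.45). FKBP1A encodes the FK506-binding protein, the cellular receptor of tacrolimus. The wide peak of FKBP1A, FKBP1A-SDCBP2 and an unnamed identifier, of 71192 nt, had 45.8 and 51.1 RPM (-0.16). The ratio thus differed between peaks that list FKBP1A, but the wide peak also touched SDCBP2. PFDN6, a prefoldin subunit gene, was listed with MIR6834 at 62.5 and 12.2 RPM (2.35). The lowest ratio among miRNA peaks was that of PTMA, the prothymosin alpha gene, with MIR1244-1. It was a peak of 25 nt at 2.95 and 3.80 RPM (-0.36) that lay wholly in the hairpin of 85 nt, and MIR1244 has near-identical copies elsewhere in the genome.

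EVL with MIR342, a miRNA known from lymphocytes, had 75.5 and 33.4 RPM (1.17), and EGFL7 with MIR126, known from endothelium, had 12.6 and 4.48 RPM (1.49). The miRNAs with a shared seed came from hosts of unlike ratio. In the UGGGGUG group the ratio was 1.82 for SLC39A1 with MIR6737 (6.86 and 1.93 RPM), 1.06 for MYH9 with MIR6819 (6.85 and 3.28 RPM) and 0.66 for PIGT with MIR6812 (3.52 and 2.23 RPM). In the GGAGGGA group it was 1.47 for RPS19 with MIR6797 and 1.13 for KIAA0930 with MIR1249 (9.45 and 4.30 RPM).

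Readthrough peaks were near the median of all peaks with several identifiers. The median ratio was 0.87 over 120 peaks, 50 of them (41.7%) reached 2-fold and 4 lay below input, where all peaks did so in 55.7% and 3.84%. In all, 39 readthrough genes were named, and 34 of them had no peak in which they stood alone. A readthrough gene was thus seen almost only through a stretch it shares with a partner. There were 21 readthrough genes with peaks beside each partner without the other, 10 with peaks beside the first partner only and 4 beside the last only. The median ratio was higher beside the last partner in 9 of the 21 and higher beside the first in the other 12.

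RPS10-NUDT3 joins a ribosomal protein gene to NUDT3, which encodes a diphosphoinositol polyphosphate phosphohydrolase. The 3 peaks shared with RPS10 had 888 and 675 RPM (ratio 0.40), 45.5 and 26.04 RPM (0.81) and 1.90 and 0.80 RPM (1.24). The 2 peaks shared with NUDT3 had 19.9 and 2.36 RPM (3.07) and 3.27 and 1.03 RPM (1.66). The ratio was higher in each NUDT3 peak than in each RPS10 peak. Among the fully named peaks sorted as readthrough with at least 1 RPM in input, the first of the NUDT3 peaks (chr6:34341879-34392669, minus strand) had the highest ratio. Both sides were listed under the same readthrough identifier.

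NME1-NME2 joins the genes of a pair of nucleoside diphosphate kinases. The peak shared with NME2 had 527 and 324 RPM (0.70). The 4 peaks shared with NME1 had 47.4 and 14.7 RPM (1.69), 26.7 and 15.3 RPM (0.80), 10.4 and 0.91 RPM (3.50), and 0.49 and 0.28 RPM (0.79). Each of the 4 was higher than the NME2 peak in ratio and lower in RPM. RPL36A-HNRNPH2, which runs from a ribosomal protein gene to a splicing factor gene, had 336 and 97.6 RPM (1.78) beside RPL36A and 1.64 and 0.39 RPM (2.04) beside HNRNPH2.

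Other readthrough genes, mostly chosen for the spread between their partners, differed in either direction. HNRNPUL2-BSCL2 had a median ratio of 2.21 in 2 peaks shared with HNRNPUL2 and of 0.85 in 4 peaks shared with BSCL2, the seipin gene. RBM14-RBM4 had 1.80 in the peak shared with RBM14 (10.2 and 2.92 RPM) and a median of 0.54 in 3 peaks shared with RBM4, both genes of RNA-binding proteins. NEDD8-MDP1 had 1.53 beside NEDD8 (161 and 55.9 RPM), the gene of a ubiquitin-like modifier, and a median of 0.83 beside MDP1. GET1-SH3BGR had 0.41 beside GET1 (2.27 and 1.71 RPM) and a median of 1.81 beside SH3BGR, where the 3 peaks summed to 0.72 and 0.14 RPM, a low level. The lowest ratios of fully named readthrough peaks with at least 1 RPM in input came from peaks of 25 nt. These were MRPS24 with URGCP-MRPS24, at 2.30 and 2.82 RPM (-0.29), and POLR2J2 with POLR2J2-UPK3BL1, at 14.3 and 14.8 RPM (-0.04). Wider peaks of both genes were higher. MRPS24 with URGCP and URGCP-MRPS24 had 154 and 88.2 RPM (0.81), and POLR2J2 with POLR2J2-UPK3BL1 had 29.55 and 17.2 RPM (0.78). POLR2J2 has near-identical relatives on chromosome 7. KYAT1-SPOUT1 varied within a partner too, with ratios of 2.57 (9.49 and 1.59 RPM) and 0.31 (9.65 and 7.76 RPM) in peaks shared with SPOUT1.

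**Figure D3:**
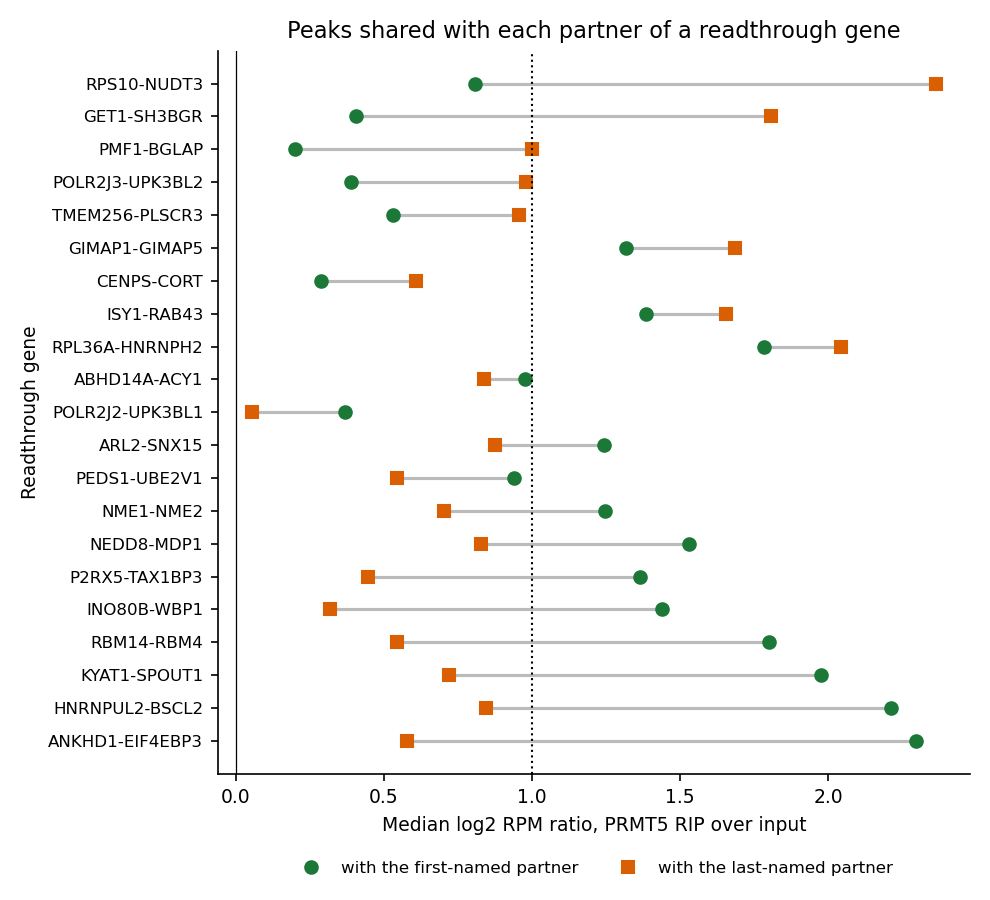
Median log2 RPM ratio of PRMT5 RIP over input (horizontal axis) in peaks that each of 21 readthrough genes (vertical axis) shared with its first-named partner (circles) and its last-named partner (squares), ordered by the difference; the dotted line marks a ratio of 1. The last-named partner is higher in 9 genes, most in RPS10-NUDT3 (0.81 and 2.36), and the first-named in 12, most in ANKHD1-EIF4EBP3 (2.30 and 0.58), each point resting on 1 to 8 peaks.

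Nested genes had a median ratio of 1.06 in 15 peaks. Of these, 10 (66.7%) reached 2-fold, where 55.7% of all peaks did, so that with so few peaks the share is near that of the list. The highest in PRMT5 RIP was CORO1B, which encodes an actin-binding coronin, with PTPRCAP, which encodes a protein associated with the phosphatase CD45 of lymphocytes. Their peak of 800 nt (chr11:67435560-67436359, minus strand) had 507 and 243 RPM (1.06), and a second peak of 100 nt had 26.3 and 2.43 RPM (3.43). CYB5R3, the gene of a cytochrome b5 reductase, with ATP5MGL had 75.2 and 14.1 RPM (2.42) over 16501 nt. LBHD1 with C11orf98 had 61.9 and 30.0 RPM (1.04). AK6, an adenylate kinase gene, with TAF9, a gene of the transcription factor TFIID, lay close to equality at 4.68 and 4.83 RPM (-0.05). GNB1L with RTL10 had 2.87 and 2.04 RPM (0.49).

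The highest ratio among the 1638 peaks fell to a peak sorted as overlapping, although by its joint name it may belong with the readthrough peaks. SERF2-C15ORF63, which RefSeq lists under a joint name whose second part is no current symbol and which was therefore not counted as readthrough, overlaps HYPK, which encodes a partner of the N-terminal acetyltransferase NatA. Their peak of 1317 nt (chr15:43800266-43801582, plus strand) stood at 63.3 RPM after PRMT5 RIP against 2.46 RPM in input (4.68). TYMP, the thymidine phosphorylase gene, with SCO2, needed for assembly of cytochrome c oxidase, had 11.3 and 2.40 RPM (2.23), and C8orf82 with LRRC24 had 31.3 and 11.6 RPM (1.44). In contrast the mitochondrial genes ND4L and ND4, which encode subunits of respiratory complex I, had 1427 and 1522 RPM (-0.09). DDOST, an oligosaccharyltransferase gene, with PINK1-AS had 2.68 and 2.07 RPM (0.37). The 7 overlapping peaks thus ranged from -0.09 to 4.68.

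The 28 peaks sorted as neighbouring, because their named genes do not overlap, were wide, with a median of 20169.5 nt. Their median ratio was 0.55. In 26 of the 28 at least 1 further identifier was left unnamed. Such an identifier may be a model that joins both genes, so that the kind of these 26 is uncertain. The peak of TPD52 and MRPS28, for example, also touched the readthrough gene TPD52-MRPS28 (19.8 and 20.8 RPM, -0.07). The 2 peaks with all identifiers named were MBD3, a subunit gene of the NuRD complex, with UQCR11, a gene of respiratory complex III, at 82.5 and 44.9 RPM (0.88), and PXMP2 with PGAM5, a mitochondrial phosphatase gene, at 6.75 and 1.02 RPM (2.71). The 7 peaks sorted by shared first letters were SYNJ2 with its intronic transcript SYNJ2-IT1 (4.94 and 1.69 RPM, 1.54), SOD2 with SOD2-OT1 (4.32 and 1.69 RPM, 1.35), SLC9A3 with SLC9A3-OT1 in 2 peaks (1.47 and 1.82), and the gene pairs ARPC1A and ARPC1B (0.81), IFITM1 and IFITM2 (0.55) and DDX19A and DDX19B (0.63). The transcripts ending in IT1 and OT1 are not members of a gene family, although the rule for shared letters took them up.

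Gene clusters of the larger families were few. By the genes touched, at least 2 histone genes lay in 4 peaks and T cell receptor segments in 1. At least 2 genes with ZNF symbols lay in 13, most of them with a readthrough or antisense gene of the same name. The T cell receptor peak lay on the minus strand over 178108 nt, at 0.17 and 0.04 RPM (1.85), and also touched TRD-AS1. Genes of unknown strand counted as touched, so that this peak need not come from the receptor segments. No peak with several identifiers touched at least 2 protocadherin, UGT1A, HLA or immunoglobulin genes. The peak over H3C4 and H2AC7 (chr6:26196790-26199286, minus strand), genes of the replication-dependent histones H3 and H2A, had 5143 and 1441 RPM (1.84). The peak over H4C15 and H2BC20P had 57.2 and 43.0 RPM (0.41), the peak over H2BP2 and H3-7 had 39.1 and 15.1 RPM (1.38), and the peak over the histone pseudogenes H3P4 and H2BP1 had 19.0 and 20.4 RPM (-0.10). Histone genes share reads with near-identical copies, so that their values are uncertain. ZNF580 and ZNF581 shared a peak at 214 and 58.4 RPM (1.88).

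The peaks with the most identifiers are described by the genes they touch, as most of their identifiers stayed unnamed. The peak with 14 identifiers spanned 74553 nt of chromosome 17 over RNU2-1, a gene of the U2 spliceosomal RNA that lies in a tandem array and shares reads with its copies, at 8.55 and 7.20 RPM (0.25). TPD52L2 and DNAJC5 lay in a peak of 9 identifiers, over 5 tandem copies of MIR941, at 25.9 and 28.7 RPM (-0.15). A peak of 8 identifiers on chromosome 9, over MTAP and CDKN2B-AS1, had 0.76 and 0.20 RPM (1.87). Among the 5 peaks with 6 identifiers, RPL4 with its snoRNAs had 1312 and 914 RPM (0.52). The widest peak, of 541485 nt over the FOXN3 locus, listed 6 identifiers and had 16.3 and 18.04 RPM (-0.15). The next widest, of 332967 nt over MAD1L1, had 18.1 and 7.68 RPM (1.23), and the third, of 281836 nt over MECOM, had 25.2 and 11.0 RPM (1.20). Among peaks without a kind and with at least 1 RPM in input, ETFB, an electron transfer flavoprotein gene, with an unnamed identifier had the highest ratio, 3.17 (81.6 and 9.09 RPM), and a peak of 21163 nt on chromosome 13 with 2 unnamed identifiers had the lowest, -0.94 (2.02 and 3.88 RPM).

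The share of peaks with several identifiers differed between chromosomes, from 4.05% on chromosome 13 (9 of 222 peaks) to 15.9% on chromosome 22 (105 of 659 peaks) and 17.8% on Y (8 of 45 peaks). The median ratio was lower with several identifiers than with 1 on every chromosome except 4 (1.34 and 1.23) and Y (1.06 and 0.95). On the mitochondrial genome, with 3 peaks of several identifiers among 41, the median was close to 0 in both (-0.04 and -0.02). The 3 peaks themselves stood at -0.09, -0.04 and 1.62, the last on the minus strand over TRNC and TRNY (397 and 129 RPM). On chromosome 13 the 9 peaks had a median of -0.04, where peaks with 1 identifier had 1.16. Peaks with several identifiers overlapped a peak of the opposite strand about as often as others, in 17.0% against 18.2%.

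The label of the cell line was checked against its marker genes. Of 15 T cell genes 11 had a named peak, 1 of 5 B cell genes (CD79A) had one, and no myeloid, erythroid or epithelial gene had one, among identifiers that could be named. LAT, which encodes the adaptor that links the T cell receptor to its downstream kinases, was the only marker gene named in peaks with several identifiers. Its 4 peaks, each with an unnamed second identifier, had 45.7 and 25.9 RPM (0.82), 5.23 and 6.12 RPM (-0.23), 21.2 and 23.9 RPM (-0.17), and 55.9 and 45.9 RPM (0.29). The LAT peaks thus lay on both sides of equality and none reached 2-fold. The genes the study turns on, PRMT5, WDR77 and PDCD1, and the control GAPDH were named in no peak with several identifiers.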

How the data were processed

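PRMT5 RIP-seq and input libraries, 2 each, were reported as 1 peak list. Per the labels, reads were handled with fastp and HISAT2 on hg38; versions, peak caller, counter and annotation are not given in the sources used here. The authors deposited RPM values pooled per group, rounded to 0.01; the depth per library is unknown, and whole reads could not be recovered. Their columns of fold change, p-value and FDR, which hold their comparison of PRMT5 RIP with input, and of scores were not used. Positions are given counting from 1, so 1 was added to each start.

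Identifiers were named from symbols that the study pairs with them, or by position, where all peaks of an identifier touched 1 RefSeq gene (GRCh38.p14; overlap of at least 1 nt, same or unknown strand) that no other identifier had or claimed. LOC models and pseudogenes without a strand were never assigned, and identifiers of non-overlapping neighbours that were never alone lost their name, since a model that joins both could take it. Among paired symbols whose gene touched every peak of the identifier, naming by position gave the same symbol for 754 of 754, but only 10 of these were listed solely with others, where errors are less well bounded. Of the 2372 identifiers, 823 were named. Kinds were assigned in the order small RNA with host, readthrough, shared family or first letters, nested, overlapping, neighbouring; opposite strands could not occur. The scripts were tested on simulated peaks.

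The named peaks were the 5 with most identifiers, the 3 widest, in each kind the 3 highest in PRMT5 RIP and, with input of at least 1 RPM, the 2 highest and 2 lowest ratios, and those with marker or study genes; other peaks were picked with their values in view. The members and lists were chosen with earlier results of these data known. Ratios were computed with scipy 1.17.1, numpy 2.4.6 and pandas 2.3.3 under Python 3.11.15, and figures drawn with matplotlib 3.10.9. Pseudocount, filters, width, repeated sets, small RNAs and chromosomes were varied. Some peaks that the rule for named peaks selects are not reported here.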

Additional observations from a re-analysis of the deposited data

How the results depend on the processing

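No paired analysis was possible because each group had 1 pooled value per peak, and for the same reason no library could be left out. Only 3.84% of all peaks in the list lay below input, so a median above 0 is no particular trait of these peaks. The median log2 RPM ratio of peaks with several identifiers, 0.86, stayed above 0 in every setting. It was 0.78 and 0.50 with 0.1 and 1 RPM added, 0.74 with at least 0.5 RPM in input, 0.81 with at least 1 RPM in PRMT5 RIP, 0.92 for widths of at most 1000 nt, and 0.13 as the ratio of summed RPM (0.68 without the 4 highest peaks). The share at or above 2-fold, 43.1%, was 36.9%, 20.5%, 35.9%, 40.6% and 46.2% in the first 5 of these settings, and 8.91% reached a log2 ratio of 2. With 1 peak for each set of identifiers, without small RNA identifiers, or without the mitochondrial genome and Y, median and share stayed within the binomial 95% interval of the main value. That interval was taken over peaks, which are not independent.

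The difference to peaks with 1 identifier, -0.26, was -0.13 with 0.1 RPM added, 0.040 with 1 RPM added, -0.17 with at least 0.5 RPM in input and -0.37 with 1 peak for each set. It was -0.049, -0.097, -0.092, -0.14, -0.068 and -0.069 in the 6 input classes from low to high and -0.11, -0.16 and -0.34 in the 3 classes of widest peaks. Within identifiers it was -0.083, or -0.032 with at least 0.5 RPM in input and -0.18 at like width. The direction thus held in the other settings and turned with 1 RPM added; the cause was not tested. There were 757 peaks with several identifiers of at most 1000 nt and 294 with 3 or more identifiers. Against 298 peaks with 2 named genes, 854 touched at least 2 RefSeq genes. The median width, 1408.5 nt, was 2497 nt with at least 1 RPM in PRMT5 RIP and 3141 nt with 1 peak for each set. The median ratio of snoRNA hosts, 0.71, was 0.55 with 1 RPM added and 0.63 with 1 peak for each set. The settings for the difference, the naming, the width and the hosts, and the sum without 4 peaks, were chosen after seeing the data. The unknown number of reads limits all low RPM values.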
